A study of Mus musculus with 19 samples.

Results

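The kinesin, spindle and cytokinesis genes are the motors, scaffolds and regulators that build the mitotic spindle, move chromosomes on it and split the cell. Members were taken as a list of 38 gene names together with every other symbol starting with Kif that has a row in the authors' deposited table of expression ratios. All 38 listed names had a row, and the symbols Kif5b and Kifc2 were added, which gave 40 members of the 1609 genes in the table. By the name the authors gave it, the table holds differentially expressed genes, and the rule of that selection is not given. Having a row, and every share of the table given below, thus rest on genes already selected as changed. The samples came from squamous cell carcinomas (SCC) of the skin of C57BL/6 mice, and RNA was compared in 2 tumours, SCC1 and SCC2, grown as allografts from 10000 cells injected into the skin. The sort used CD71, the transferrin receptor that dividing cells carry at a high level, and H2BGFP, a fluorescent histone that dividing cells dilute. The quiescent population had low CD71 with high H2BGFP, the proliferative population high CD71 with low H2BGFP, and the double negative population low levels of each. Each population of each tumour gave 1 RNA library from 100000 sorted cells. Accessible chromatin was mapped by ATAC-seq in 10 libraries of 50000 cells, namely these 3 populations and a CD71 high, H2BGFP high population of SCC1 and SCC2, and 2 libraries of SCC3, a tumour with a Tgfbr2 knockout. ChIP-seq mapped Smad2/3 binding in 1 sample of 12000000 SCC1 cells kept in culture with 50 uM calcium and treated with TGFβ1 at 5 ng/mL for 1 h, and input DNA of SCC1 and SCC2 was treated likewise. The labels name no genotype for SCC1 and SCC2, and neither the driver of H2BGFP nor the number of animals is given in the sources used here.

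During division, kinesin motors walk along or take apart microtubules, so that the poles separate, the chromosomes line up and the overlapping microtubules of the midzone mark where the cell will split. The chromosomal passenger complex corrects wrong attachments early and moves to the midzone later, where centralspindlin and the exchange factor for RhoA start the contractile ring. RNAs of these genes are made mainly in the G2 and M phases of the cell cycle and are low in cells that have left the cycle, which is why several of them serve as markers of dividing cells in tumours.

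The authors' deposited table gives a log2 ratio for each gene, tumour and pair of populations, and a value below 0 means less RNA in the first-named population. It holds no expression levels, read counts or q-values, so the depth behind a ratio is unknown and the order of the genes by level cannot be given. With 1 library per population and tumour there is no spread within a tumour, and a two-sided exact sign test over 2 tumours cannot go below p = 0.5, so no test was run. A gene was called lower or higher when its log2 ratio was 1 or more in size with the same sign in SCC1 and SCC2. In sorted bulk cells, fewer dividing cells and less RNA per cell cannot be told apart. The 3 comparisons are made from the same 3 libraries of each tumour, and the ratios of quiescent and of double negative cells share the proliferative library.

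Quiescent cells had less RNA than proliferative cells for 38 of 40 members in both tumours by this rule, where the authors' deposited table has 23.3% of its genes called lower. By sign alone 39 members were below 0 (52.3% of the authors' deposited table) and 1 above (35.8%). The members not called lower were Kif5b, below 0 in both tumours, and Kifc2, which was called higher, as 11.3% of the table's genes were. Over the members the median log2 ratio of the authors' deposited table stood at -4.51 for SCC1 and -1.70 for SCC2, against -0.61 and -0.49 over all its genes. In SCC1, 29 of the 100 genes with the lowest ratio of the authors' deposited table were members, and in SCC2 13 were. The size of the difference depended on the tumour. The ratio in the authors' deposited table was lower in SCC1 than in SCC2 for 38 of 40 members, all but Ckap5 and Kif5b, with a median gap of -2.59. At a log2 ratio of 2 or more in size in both tumours, 13 members were called lower, against 4.35% of the authors' deposited table, and 0 higher, against 2.11%.

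Double negative cells also had less RNA than proliferative cells for 38 of 40 members, where 25.2% of the genes in the authors' deposited table were called lower. By sign alone 39 were below 0 (50.9% of the authors' deposited table) and 1 above (42.6%). Here too the exceptions were Kif5b and Kifc2, and Kifc2 was called higher, as 15.5% of the table's genes were. Over the members the median log2 ratio of the authors' deposited table stood at -3.44 for SCC1 and -3.21 for SCC2, against -0.35 and -0.34 over all genes. In this comparison the gap between SCC1 and SCC2 had a median of -0.27 and ran from -1.25 for Mki67 to 0.76 for Troap in the authors' deposited table. At a log2 ratio of 2 or more in size, 36 members were called lower in both tumours, against 10.5% of the authors' deposited table, and 0 higher, against 3.48%. Across the 38 listed members, which are not independent replicates, the ratios of SCC1 and SCC2 in the authors' deposited table had a Pearson correlation of 0.72 for double negative against proliferative cells. Across the same 38 members the correlation for quiescent against proliferative cells was 0.14, against 0.64 over all genes of the authors' deposited table. The order of the listed members in one tumour was thus not that in the other.

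**Figure D1:**
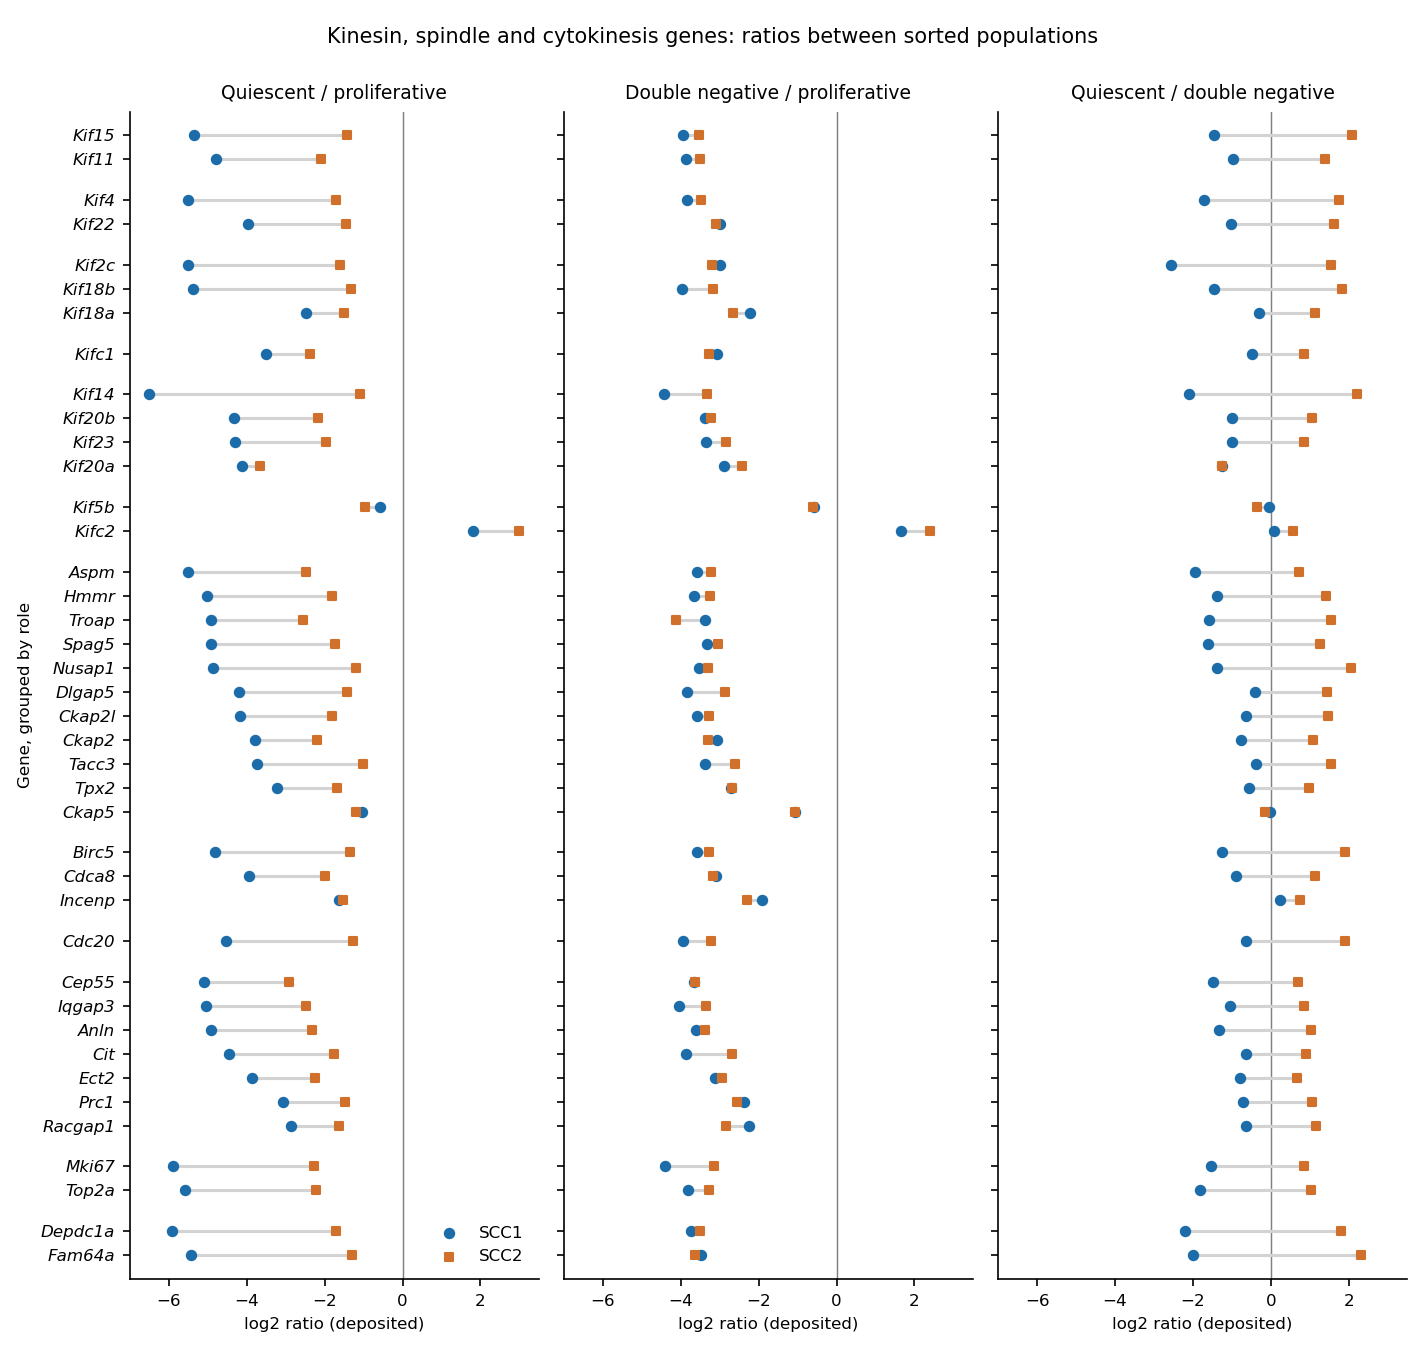
Log2 ratios from the authors' deposited table for the 40 members, grouped by role, in the 3 comparisons; circles are SCC1, squares are SCC2, each point is 1 ratio between 2 libraries, and a grey line joins the tumours of a gene. In the left panel the members lie between -6.51 and 1.80 in SCC1 and between -3.66 and 3.00 in SCC2, and in the middle panel the gap between SCC1 and SCC2 runs from -1.25 (Mki67) to 0.76 (Troap).

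The promoters of the members shared sequence elements. Many genes of mitosis carry a cell cycle genes homology region (CHR), which the MuvB complexes read, near a CCAAT box, which the factor NF-Y binds, while E2F factors bind elements common in genes of DNA replication. RefSeq promoter windows of build GRCm38.p6, from 250 bases before to 50 after the start site, were at hand for 33 members, and they were searched on both strands for TTTGAA (CHR core), the letters CCAAT that name their box, and the E2F core in its form TTCCCGC, its form TTCGCGC, its form TTGCCGC and its form TTGGCGC. A CHR core was found in 27 of 33 members (81.8%), against 19.9% of the 1226 genes of the ratio table with a window and 20.2% of all 27025 genes with one. A CCAAT box was found in 22 members (66.7%), against 49.3% and 41.1%. CHR core and CCAAT box occurred together in 21 members (63.6%), against 12.4% and 8.97%. An E2F core was found in 6 members (18.2%), against 24.2% of the ratio table's genes and 10.9% of all. Hmmr, Ect2 and Mki67 held all 3 elements, and Birc5, Cit and Nusap1 held none. Such a match is a run of letters and not a shown binding site.

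The matches lay close to the start site. A CHR core began within 50 bases of the start in 23 of 33 members (69.7%), against 8.81% of the ratio table's genes and 4.92% of all genes with a window. The 35 CHR cores had a median position of -16 and the 52 CCAAT boxes a median of -53. Positions count the start base as 1 and have no 0. A CCAAT box began within 50 bases in 18 members (54.5%), against 20.5% and 13.9%. Few matches overlapped another motif: 1 CHR core, 2 CCAAT boxes and 1 of the 6 E2F cores. The promoters of 4 members, 1 from each of 4 role groups, show the arrangement from 150 bases before the start, with matches to any of the motifs in capitals (CCAAT boxes on the reverse strand read ATTGG, CHR cores TTTGAA or TTCAAA):
Hmmr, chr11:40733413-40733587, minus strand: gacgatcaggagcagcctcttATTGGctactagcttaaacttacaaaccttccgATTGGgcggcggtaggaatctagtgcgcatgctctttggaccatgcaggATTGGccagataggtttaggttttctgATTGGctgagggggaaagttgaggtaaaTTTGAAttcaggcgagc
Ect2, chr3:27153854-27154028, minus strand: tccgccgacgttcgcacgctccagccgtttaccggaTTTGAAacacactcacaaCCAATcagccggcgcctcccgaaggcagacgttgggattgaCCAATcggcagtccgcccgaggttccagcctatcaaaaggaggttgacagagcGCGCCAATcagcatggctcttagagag
Kif23, chr9:61946775-61946949, minus strand: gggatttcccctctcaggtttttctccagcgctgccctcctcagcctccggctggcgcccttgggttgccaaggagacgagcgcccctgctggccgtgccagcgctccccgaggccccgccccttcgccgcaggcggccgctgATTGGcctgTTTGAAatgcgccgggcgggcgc
Kif18b, chr11:102925100-102925274, minus strand: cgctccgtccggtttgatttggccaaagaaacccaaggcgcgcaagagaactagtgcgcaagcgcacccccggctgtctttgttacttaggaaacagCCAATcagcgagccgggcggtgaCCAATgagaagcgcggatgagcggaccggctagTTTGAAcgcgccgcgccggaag
Hmmr, a spindle pole protein, has 4 CCAAT boxes on the reverse strand in the stretch shown and a CHR core at position 9, after the start. Ect2, the exchange factor that activates RhoA, has a CHR core at -114 and CCAAT boxes at -96 and -55, and at the start an E2F core that overlaps another CCAAT box. Kif23, a midzone motor, and Kif18b, a motor of microtubule ends, carry a CHR core at positions 3 and 4, after the start. It is preceded by a CCAAT box at -7 in Kif23 and by boxes at -53 and -30 in Kif18b.

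**Figure D2:**
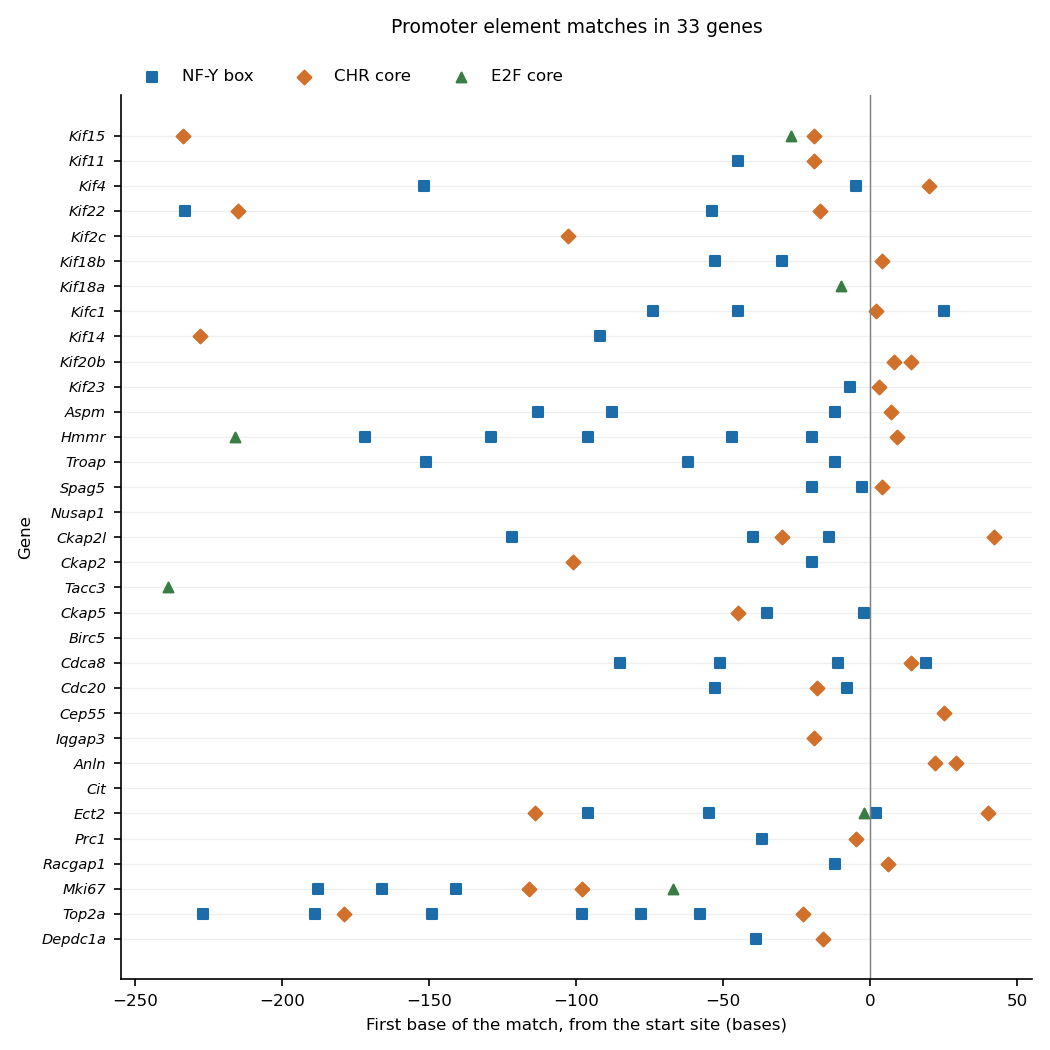
Position of each CHR core, CCAAT box (labelled NF-Y box) and E2F core in the promoter windows of 33 members, as the first base of the match. The start base is counted as the first base and no base is at 0. CHR cores gather around the start, with a median of -16, and CCAAT boxes just before it, with a median of -53, while the rows of Birc5, Cit and Nusap1 are empty.

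Members without a CHR core were low as well. The 27 members with a CHR core had median log2 ratios in the authors' deposited table of -4.91 for SCC1 and -1.82 for SCC2 for quiescent against proliferative cells. The 6 without one, Birc5, Cit, Nusap1, Kif18a, Tacc3 and Troap, had medians of -4.64 and -1.42 by the authors' deposited table. For double negative against proliferative cells the medians in the authors' deposited table were -3.59 and -3.23 with a CHR core and -3.45 and -2.98 without.

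The kinesins of the spindle poles and the spindle's length were all called lower in quiescent and in double negative cells. Kif11, the bipolar motor that pushes antiparallel microtubules and so the poles apart, had log2 ratios for quiescent against proliferative cells of -4.79 for SCC1 and -2.10 for SCC2 in the authors' deposited table. Its double negative against proliferative ratios in the authors' deposited table were -3.86 and -3.50. Kif15, which helps to keep the poles apart, stood at -5.36 and -1.43 in quiescent and at -3.94 and -3.54 in double negative cells in the authors' deposited table. For both motors the SCC2 ratio of quiescent cells was the one nearest to 0. Kifc1, a motor that walks towards microtubule minus ends and gathers them at the poles, had -3.52 and -2.39 in quiescent cells and -3.08 and -3.28 in double negative cells in the authors' deposited table.

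Chromokinesins and motors of microtubule ends behaved alike. The authors' deposited table gave Kif4, a motor that binds chromosome arms and later the midzone, -5.51 for SCC1 and -1.71 for SCC2 for quiescent against proliferative cells, and -3.85 and -3.48 for double negative against proliferative cells. Kif22, which pushes chromosome arms towards the equator, had -3.97 and -1.44 in quiescent cells and -2.99 and -3.10 in double negative cells in the authors' deposited table. Kif2c, which takes microtubules apart at centromeres and so corrects wrong attachments, stood at -5.52 and -1.61 in quiescent and at -2.98 and -3.20 in double negative cells in the authors' deposited table. In SCC1, Kif2c was thus further below the proliferative level in quiescent than in double negative cells, and in SCC2 it was less far below. Kif18b, which limits the length of astral microtubules, had quiescent ratios of -5.39 and -1.32 and double negative ratios of -3.98 and -3.19 in the authors' deposited table. Kif18a, which damps the swings of chromosomes at the equator, was the least changed listed kinesin in SCC1, with -2.48 and -1.49 in quiescent cells and -2.23 and -2.65 in double negative cells in the authors' deposited table.

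Among motors of the midzone and midbody, Kif14 and Kif20a marked the ends of the range. Kif14, which brings citron kinase to the midbody, had the lowest quiescent against proliferative ratio of all members in SCC1, -6.51, and one of the highest in SCC2, -1.10, in the authors' deposited table. Its double negative ratios in the authors' deposited table were -4.44 and -3.33. Kif20a, which carries the chromosomal passenger complex to the midzone, showed nearly the same quiescent ratio in both tumours, -4.13 and -3.66 in the authors' deposited table, and the SCC2 value was the lowest of any member there. Double negative cells had -2.90 and -2.44 for Kif20a by the authors' deposited table. Kif23, the motor of centralspindlin, had -4.31 and -1.97 in quiescent cells and -3.36 and -2.83 in double negative cells in the authors' deposited table. Kif20b, a midbody motor, had -4.33 and -2.16 in quiescent cells and -3.39 and -3.23 in double negative cells in the authors' deposited table. The 12 listed kinesins together had median quiescent ratios of -4.56 and -1.66 and median double negative ratios of -3.38 and -3.21 in the authors' deposited table, close to the medians of all members.

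The Kif symbols outside the list behaved otherwise. Kif5b, the heavy chain of conventional kinesin, which carries cargo in cells whether or not they divide, had quiescent ratios of -0.58 and -0.95 and double negative ratios of -0.57 and -0.62 in the authors' deposited table, none of them 1 or more in size. Kifc2, a kinesin with its motor at the C-terminal end that is best known from neurons, was the only member called higher. Its ratios in the authors' deposited table were 1.80 for SCC1 and 3.00 for SCC2 for quiescent, and 1.66 and 2.40 for double negative against proliferative cells.

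All 11 spindle assembly proteins were called lower in quiescent and in double negative cells. Aspm, which focuses microtubule minus ends at the poles, had quiescent against proliferative ratios of -5.50 for SCC1 and -2.49 for SCC2 and double negative ratios of -3.59 and -3.22 in the authors' deposited table. Troap, a protein of spindle microtubules, had -4.92 and -2.55 in quiescent cells, and its double negative ratio in SCC2, -4.12, was the lowest of any member in that tumour in the authors' deposited table, beside -3.37 in SCC1. Hmmr stood at -5.02 and -1.82 in quiescent and at -3.67 and -3.25 in double negative cells in the authors' deposited table. These 3 and Spag5, Nusap1, Dlgap5 and Ckap2l were all below -4 in quiescent cells of SCC1. Spag5, which holds chromosome attachments stable, had quiescent ratios of -4.91 and -1.74 and double negative ratios of -3.34 and -3.04 in the authors' deposited table. Nusap1, which bundles microtubules near chromosomes, had -4.86 and -1.21 in quiescent cells and -3.52 and -3.30 in double negative cells in the authors' deposited table. Dlgap5, a stabiliser of the fibres that pull on chromosomes, had -4.20 and -1.41 in quiescent cells and -3.84 and -2.87 in double negative cells in the authors' deposited table. Nusap1 and Dlgap5 were thus among the members whose SCC2 quiescent ratio stood well above the other ratios.

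The remaining spindle assembly proteins spanned a wide range. Ckap2l, a spindle pole protein, had quiescent ratios of -4.17 and -1.80 and double negative ratios of -3.58 and -3.28 in the authors' deposited table. Its relative Ckap2, which promotes microtubule growth in the spindle, had -3.79 and -2.20 in quiescent cells and -3.06 and -3.29 in double negative cells in the authors' deposited table. Tacc3, which links the fibres of the spindle to each other, had -3.73 and -1.02 in quiescent cells and -3.38 and -2.60 in double negative cells in the authors' deposited table. Its SCC2 value lay just past the size of 1 that the call needs. Tpx2, the activator and spindle anchor of the kinase Aurora A, had -3.23 and -1.68 in quiescent cells and -2.71 and -2.68 in double negative cells in the authors' deposited table. Ckap5, the polymerase that lengthens microtubules throughout the cell cycle, moved least of the listed members, at -1.05 and -1.18 in quiescent cells and -1.06 and -1.07 in double negative cells in the authors' deposited table. The 4 values of Ckap5 lay within a narrow band just past the size that the call needs.

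RNAs of the 3 chromosomal passenger subunits among the members were called lower in both populations, to unequal degrees. The kinase of the complex, Aurora B, was counted with the mitotic kinases. Birc5 (survivin), which brings the complex to centromeres, had quiescent ratios of -4.82 and -1.34 and double negative ratios of -3.59 and -3.28 in the authors' deposited table. Cdca8 (borealin), its partner, had -3.95 and -1.99 in quiescent cells and -3.09 and -3.16 in double negative cells in the authors' deposited table. Incenp, the scaffold that holds and activates the kinase Aurora B, was less low, with -1.63 and -1.52 in quiescent cells and -1.90 and -2.30 in double negative cells in the authors' deposited table. Incenp and Kif20a were alone among the members called lower, other than Ckap5, in having quiescent ratios of the 2 tumours within 0.5 of each other. Cdc20, which turns on the anaphase-promoting complex once chromosomes are attached, had -4.54 and -1.28 in quiescent cells and -3.95 and -3.22 in double negative cells in the authors' deposited table.

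All 7 cytokinesis proteins were called lower in both populations. Cep55, which brings the membrane-cutting machinery to the midbody, had quiescent ratios of -5.10 for SCC1 and -2.91 for SCC2 and double negative ratios of -3.66 and -3.64 in the authors' deposited table. Iqgap3, a scaffold that binds small GTPases, had -5.06 and -2.47 in quiescent cells and -4.04 and -3.34 in double negative cells in the authors' deposited table. Anln, the scaffold of the contractile ring, had -4.91 and -2.32 in quiescent cells and -3.62 and -3.38 in double negative cells in the authors' deposited table. These 3 stayed at -2 or below in every ratio against proliferative cells, as did Ect2 and some members of other groups, such as Aspm and Kifc1. Cit, the citron kinase of the midbody, had -4.47 and -1.75 in quiescent cells and -3.86 and -2.68 in double negative cells in the authors' deposited table. Ect2 had -3.88 and -2.25 in quiescent cells and -3.13 and -2.94 in double negative cells in the authors' deposited table. The crosslinker of antiparallel microtubules, Prc1, and the other centralspindlin subunit, Racgap1, were the least low of the group in quiescent cells of both tumours. Prc1 had -3.06 and -1.48 in quiescent cells and -2.38 and -2.56 in double negative cells in the authors' deposited table. Racgap1 had -2.86 and -1.63 in quiescent cells and -2.25 and -2.83 in double negative cells in the authors' deposited table.

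The chromosome proteins and the remaining members had some of the lowest ratios in SCC1. Mki67, the marker Ki-67 that keeps mitotic chromosomes from sticking together, had double negative ratios of -4.40 and -3.15 in the authors' deposited table. Top2a, the topoisomerase that untangles sister DNA, had quiescent ratios of -5.59 and -2.21 and double negative ratios of -3.81 and -3.27 in the authors' deposited table. Mki67 in quiescent cells was close to Top2a in both tumours, with -5.90 and -2.28 by the authors' deposited table. Depdc1a, a DEP domain protein, had -5.92 and -1.70 in quiescent cells and -3.75 and -3.50 in double negative cells in the authors' deposited table. Fam64a, also called Pimreg, had -5.44 and -1.29 in quiescent cells and -3.49 and -3.64 in double negative cells in the authors' deposited table.

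Quiescent and double negative cells differed in opposite directions in the 2 tumours. Of 40 members, 35 had less RNA in the quiescent cells of SCC1, and more in those of SCC2, than in double negative cells, a pattern held by 40.8% of the authors' deposited table, and none had the reverse, held by 12.6%. At a log2 ratio of 1 or more in size in each tumour, 15 members had the first pattern, against 8.58% of the authors' deposited table. Over members the median of the authors' deposited table stood at -1.0 for SCC1 and 1.14 for SCC2, against -0.23 and 0.13 over all genes. In SCC1 alone 20 members were 1 or more lower (19.2% of the authors' deposited table), and 0 higher (2.05%). In SCC2 alone 26 were 1 or more higher (18.3% of the authors' deposited table) and 1 lower (7.58%). These ratios add little that is independent, since the first ratio less the second gave the third within 0.041 for each member in the authors' deposited table.

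**Figure D3:**
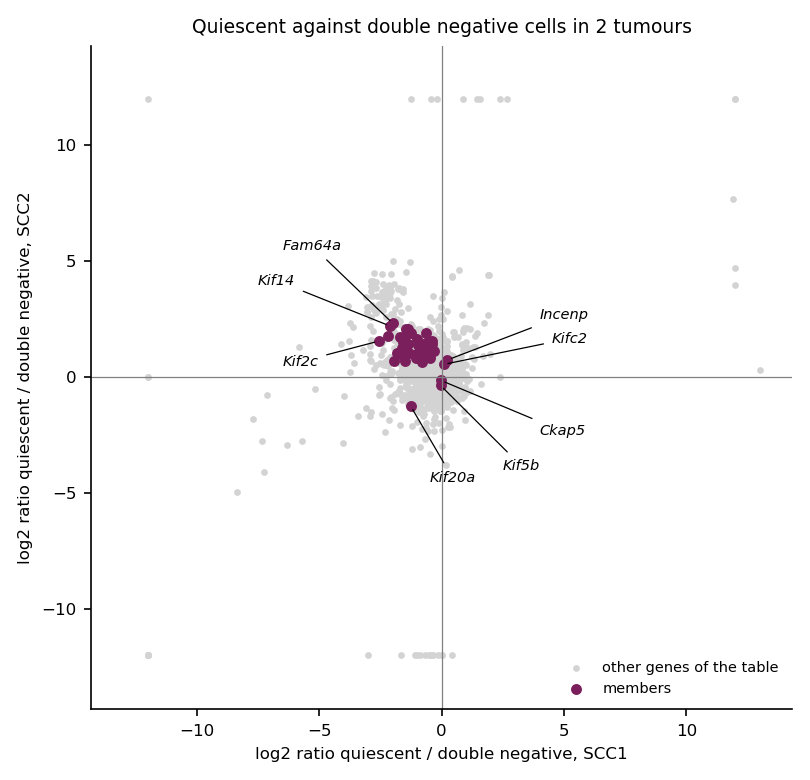
Log2 ratios of quiescent against double negative cells from the authors' deposited table, SCC1 on the horizontal and SCC2 on the vertical axis; each point is 1 gene, dark points are the 40 members and grey points the other genes of the table. Most members, 35 of 40, sit at the upper left, and Kif20a is the dark point at -1.26 and -1.24. No member lies among the grey points that line up at the same extreme ratio along the edges.

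Between quiescent and double negative cells, Kif20a was the only member called lower in the quiescent cells, at -1.26 for SCC1 and -1.24 for SCC2 in the authors' deposited table, where 2.3% of genes were so called, and at a log2 ratio of 2 there were 0 (0.808%). No member was called higher (1.31% of the authors' deposited table). Ckap5, at -0.025 and -0.14, and Kif5b, at -0.043 and -0.35, were the other members below 0 in both tumours in the authors' deposited table, a sign that 30% of its genes had. Incenp, at 0.24 and 0.75, and Kifc2, at 0.095 and 0.56, were above 0 in both in the authors' deposited table, as 16.3% of its genes were. Apart from Kif20a these exceptions were small in size, and 3 of the 4, all but Kifc2, were also less low than most members against proliferative cells.

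The widest swings belonged to kinesins and to the remaining members. Kif14 went from -2.11 in SCC1 to 2.21 in SCC2, Fam64a from -1.99 to 2.32, Kif2c from -2.57 to 1.56 and Depdc1a from -2.21 to 1.80 in the authors' deposited table. Kif15 (-1.46 and 2.10), Kif4 (-1.70 and 1.75), Kif18b (-1.45 and 1.83), Kif22 (-1.02 and 1.63) and Kif11 (-0.97 and 1.38) followed among the motors in the authors' deposited table. Kif20b (-0.98 and 1.05), Kif23 (-0.98 and 0.84), Kif18a (-0.29 and 1.14) and Kifc1 (-0.48 and 0.85) moved less in the authors' deposited table. The motors of the midzone thus held both Kif14, which with Fam64a swung furthest and to nearly the same extent, and the sole exception among listed kinesins, Kif20a.

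Spindle assembly and passenger proteins had the same split. Nusap1 (-1.37 and 2.07), Troap (-1.60 and 1.54), Spag5 (-1.61 and 1.27), Hmmr (-1.38 and 1.42) and Aspm (-1.95 and 0.72) were each more than 1 below 0 in SCC1 in the authors' deposited table. Ckap2l (-0.63 and 1.46), Tacc3 (-0.39 and 1.55), Dlgap5 (-0.40 and 1.44), Ckap2 (-0.77 and 1.08) and Tpx2 (-0.57 and 0.98) were less than 1 below 0 in SCC1 in the authors' deposited table. Birc5 (-1.26 and 1.91), Cdca8 (-0.90 and 1.13) and Cdc20 (-0.63 and 1.90) changed sign as well in the authors' deposited table. Among the cytokinesis proteins the authors' deposited table had Cep55 (-1.49 and 0.71), Anln (-1.33 and 1.05), Iqgap3 (-1.06 and 0.84), Ect2 (-0.79 and 0.67), Prc1 (-0.71 and 1.06), Racgap1 (-0.65 and 1.17) and Cit (-0.65 and 0.90). Top2a (-1.82 and 1.04) and Mki67 (-1.54 and 0.85) likewise changed sign in the authors' deposited table. The cytokinesis proteins thus stayed closer to 0 in SCC2, with a median of 0.90, than the spindle assembly proteins, with a median of 1.42 in the authors' deposited table.

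Ratios of markers of other cells also differed between the tumours. The tumours' cells were labelled as squamous carcinoma, and with ratios only the level of keratinocyte markers could not be checked. Fibroblast genes (10 of 13 listed had a ratio) had medians for quiescent against proliferative cells of 0.07 in SCC1 (range -0.997 to 2.75) and 4.51 in SCC2 (2.54 to 5.38) in the authors' deposited table. Immune genes (7 of 16) had medians of -0.30 (-1.57 to 1.65) and 2.87 (2.49 to 4.24), and endothelial genes (3 of 8) ranged from -0.83 to 0.72 and from 0.88 to 2.75, in the authors' deposited table. For double negative against proliferative cells the fibroblast medians were 2.73 and 1.47, the immune 1.16 and 0.95 and the endothelial 3.34 and 1.63 in the authors' deposited table. For quiescent against double negative cells the fibroblast medians in the authors' deposited table were -2.72 for SCC1 and 3.14 for SCC2, and the immune medians -1.44 and 2.29, with the same signs as the medians of the members. The endothelial medians were -4.0 and -0.79, below 0 in both tumours and so opposite in sign to the members' median for SCC2, by the authors' deposited table. Of 10 epithelial markers only Epcam had a ratio, -3.21 and -0.40 for quiescent against proliferative cells in the authors' deposited table. Tfrc, which encodes the sorting marker CD71, was at -1.72 and -1.55 in quiescent and at -1.63 and -2.02 in double negative cells in the authors' deposited table. The part of these markers in the members' ratios was not tested, and neither was that of build mm9, which the submitters' processing notes name beside mm10 for the double negative libraries.

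**Figure D4:**
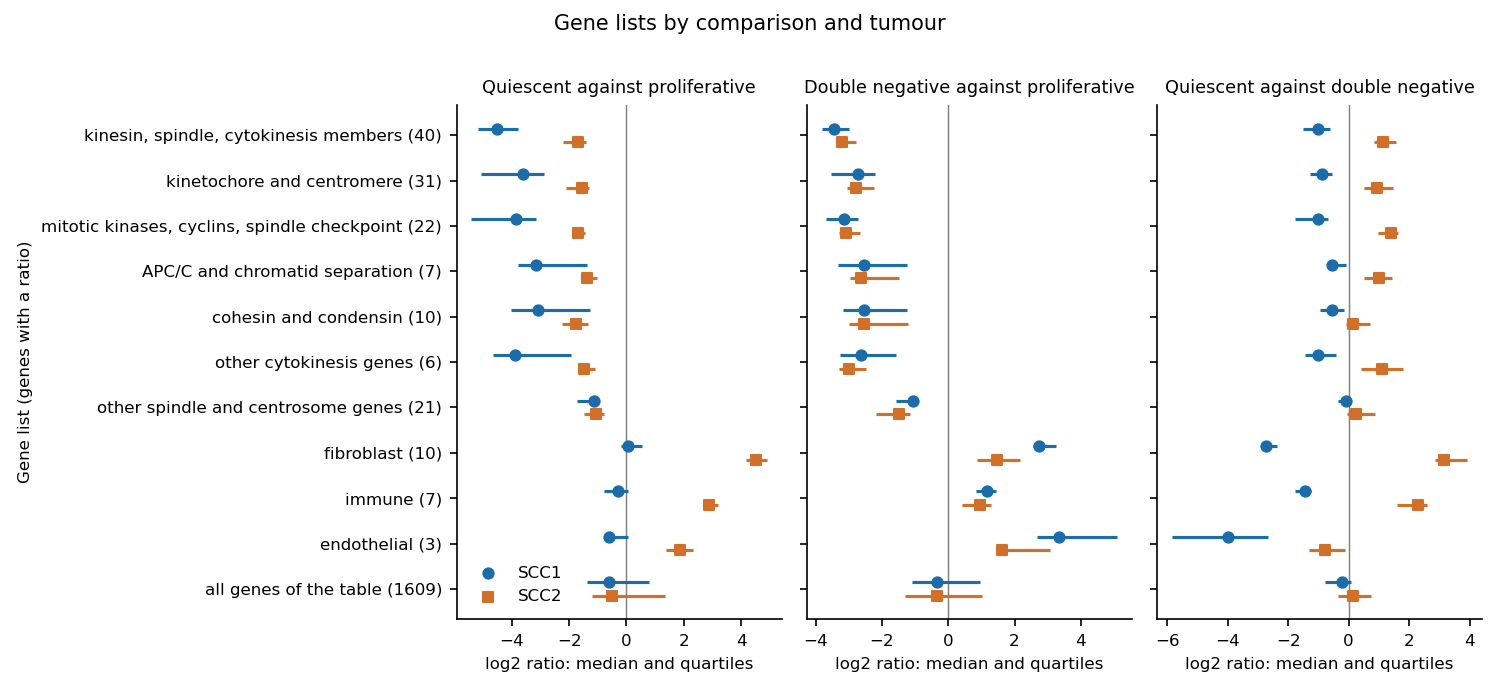
Median (point) and quartiles (line) of the log2 ratios in the authors' deposited table for the members, 6 lists of other division genes, 3 marker lists and all 1609 genes, with the number of genes with a ratio in brackets; circles are SCC1 and squares SCC2. The members have the lowest median in the left panel in SCC1, at -4.51. In SCC2 the cohesin and condensin list is lower, at -1.78 against -1.70 for the members. The fibroblast list is at 0.07 for SCC1 and 4.51 for SCC2.

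Other genes of division were set beside the members. Here and in the next paragraph, lowest and highest go by the mean of the quiescent against proliferative ratios of SCC1 and SCC2. In 1 tumour alone another gene can be lower or higher. No gene of the 6 lists was called higher in quiescent or in double negative cells. Of 31 kinetochore and centromere genes with a ratio (37 listed), 28 were called lower in quiescent cells and 31 in double negative cells in the authors' deposited table, with quiescent medians of -3.61 and -1.54. Cenpm and Ska1, of the centromere and of the outer kinetochore, had quiescent ratios of -8.14 and -8.08 for SCC1 but -1.54 and -0.73 for SCC2. By the mean Cenpq was highest, with -1.13 and -1.25 in the authors' deposited table. Of 22 kinases, cyclins and checkpoint genes (24 listed), 20 were called lower in quiescent and 21 in double negative cells in the authors' deposited table. The phosphatase Cdc25c (-6.52 and -1.58) and the cyclin Ccnb1 (-5.70 and -2.12) were lowest in quiescent cells and the checkpoint gene Mad1l1 (-1.18 and -0.76) highest in the authors' deposited table. Both lists thus had the wide gap between tumours that the members had.

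For the anaphase-promoting complex and chromatid separation, 5 of 7 genes with a ratio (9 listed) were called lower in quiescent cells and 6 in double negative cells in the authors' deposited table. The ubiquitin-conjugating enzyme Ube2c (-5.15 and -1.42) and separase, Espl1 (-4.38 and -2.00), were lowest and the subunit Cdc27 (-0.35 and -0.95) highest in quiescent cells in the authors' deposited table. Of 10 cohesin and condensin genes (14 listed), 8 were called lower in each population, with the cohesin acetyltransferase Esco2 (-6.09 and -3.43) and the condensin subunit Ncapg (-4.90 and -2.83) lowest and the cohesin subunit Rad21 (-0.65 and -1.11) highest in quiescent cells in the authors' deposited table. Further cytokinesis genes had a ratio for 6 of 22 listed, and 4 were called lower in quiescent and 5 in double negative cells in the authors' deposited table. Shcbp1, a midbody protein (-5.47 and -1.69), and the formin Diap3 (-4.49 and -2.64) were lowest and the kinase Rock2 (-0.44 and -1.05) highest in quiescent cells in the authors' deposited table. Further spindle and centrosome genes were less low than the members: of 21 with a ratio (34 listed), 8 were called lower in quiescent and 12 in double negative cells, with quiescent medians of -1.15 and -1.08 by the authors' deposited table. Stmn1, which destabilises microtubules (-4.30 and -1.47), and the centriole gene Stil (-2.71 and -2.51) were lowest there, and Haus5 of the augmin complex (-1.12 and -0.47) was highest, in the authors' deposited table.

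An ATAC peak lay near every member, as near most genes of the ratio table, and few members had a listed Smad2/3 site within 10 kb. A merged ATAC peak lay within 10 kb of all 40 members (100%, exact 95% binomial interval 91.2 to 100), against 1503 of 1600 genes of the ratio table with coordinates (93.9%). The start site lay inside a peak for 30 of 33 members (90.9%, exact interval 75.7 to 98.1), against 942 of 1226 genes of the ratio table (76.8%) and 36.4% of all 27025 genes with a promoter window. The others were Kif14, Kif2c and Cit, whose outermost annotated gene start lay inside a peak. The peak nearest to the start had a median width of 700 bp, and its centre was within 500 bp of the start for 30 of 33 members. The peak list merges all populations, so accessibility was not compared between them. Cit, the longest member at 163730 bp, had the most peaks within 10 kb, 10.

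A listed Smad2/3 site lay within 10 kb of 4 of 40 members (10%, exact 95% binomial interval 2.79 to 23.7), against 342 of 1600 genes of the ratio table (21.4%, interval 19.4 to 23.5). The intervals overlapped, and the members' genes were longer, with a median of 30081.5 bp against 18727 bp. Tpx2 had 2 sites, both inside ATAC peaks: chr2:152847929-152848129, which spans the annotated start of the gene at 152847964, and chr2:152904084-152904284, which lies 8763 bp outside the gene and within 10 kb of Mylk2 as well. The sites of Ckap2l, chr2:129263180-129263380 inside a peak and chr2:129258127-129258327 outside one, lay 4830 and 9883 bp from the gene, past its end. Kif2c had 2 sites upstream and outside peaks, chr4:117190365-117190565 and chr4:117191214-117191414, at 7741 and 8590 bp from the gene. Kif11 had 1 site, chr19:37376145-37376345, with its centre at -137 from the start site and inside an ATAC peak, and its sequence is shown because it was the site nearest to a promoter among members with a window (the capitals mark a CCAAT box on the reverse strand):
Kif11, chr19:37376145-37376345, plus strand: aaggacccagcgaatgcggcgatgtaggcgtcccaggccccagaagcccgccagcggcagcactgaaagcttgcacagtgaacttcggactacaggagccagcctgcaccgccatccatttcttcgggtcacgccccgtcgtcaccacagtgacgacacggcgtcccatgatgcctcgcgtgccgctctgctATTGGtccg
The sequence CAGAC, a core to which Smad3 binds, or its reverse complement, was not among these letters. By its name the list holds bound sites with a motif, and no other Smad sequence was searched for. The lack of CAGAC thus does not show that the site lacks the authors' motif. CAGAC or its reverse complement was found in 53.2% of all promoter windows and in 19 of the 33 windows of members. These windows are longer than the site, so the shares cannot be read against it. The members with a site, Kif11, Tpx2, Ckap2l and Kif2c, were below 0 in all 4 ratios against proliferative cells. So was every other member but Kifc2, so these signs do not set the members with a site apart.

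**Figure D5:**
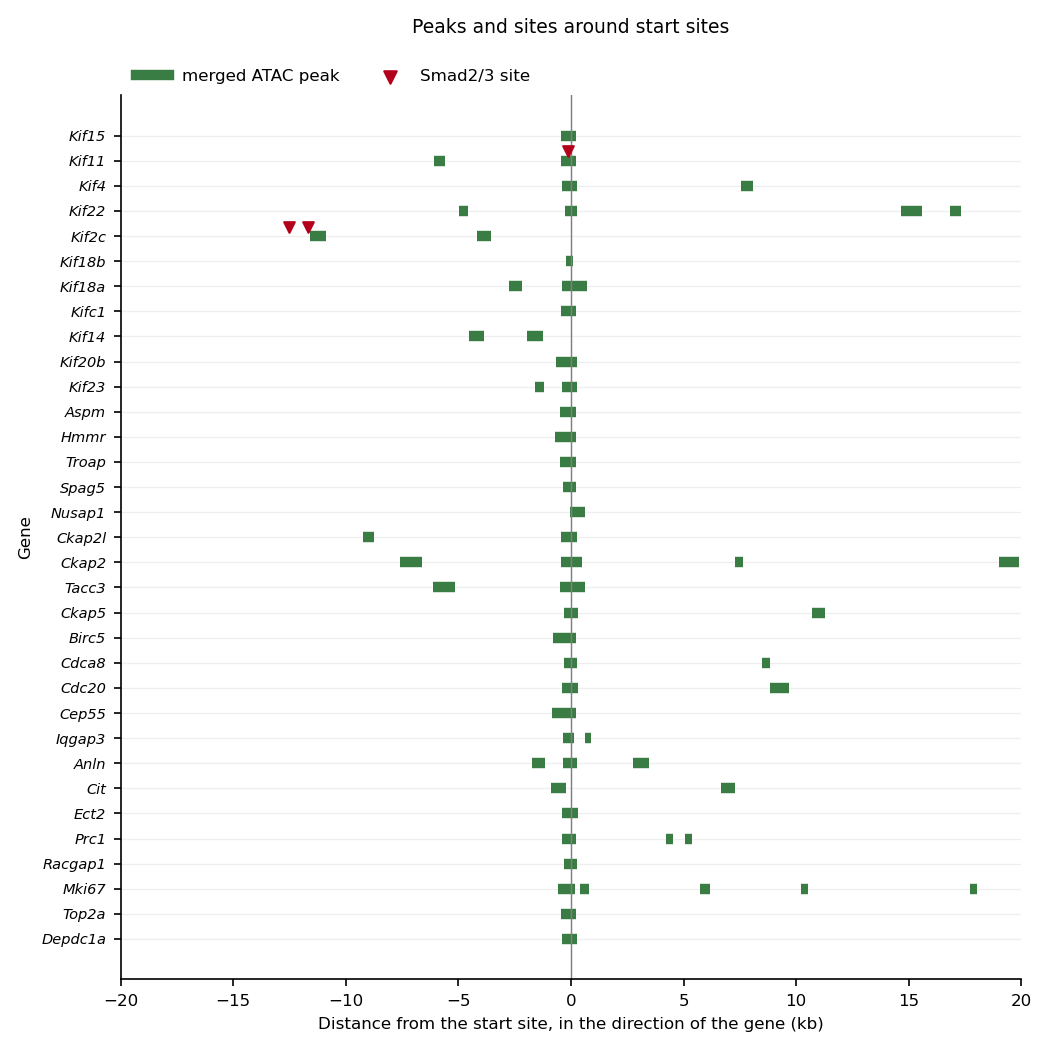
Merged ATAC peaks (green bars, to scale) and listed Smad2/3 sites (red triangles) within 10 kb of a gene, shown up to 20 kb from the start site for the 33 members with a promoter window; the horizontal axis is the distance from the start in the direction of the gene. A peak covers the start in 30 of 33 rows, and the single triangle at a start is that of Kif11.

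Copy number of the members' loci was raised or without a call, as it was for most genes of the ratio table. In the authors' calls from input DNA, 22 of 40 members lay in a gain in SCC1 (55%), against 45.1% of the ratio table's genes, and 24 lay in a gain in SCC2 (60%), against 44.1%. No member lay in a loss, which held 1.56% and 1.5% of the table's genes. Gains were of 3 or 4 copies. Top2a, Kif18b, Spag5, Kif2c, Troap, Racgap1, Iqgap3 and Kif5b had 4 copies for SCC1 and 3 for SCC2, and Incenp had 3 for SCC1 and 4 for SCC2. Nusap1, on chromosome 2, had 4 copies in SCC2 and no call in SCC1. Kif14, Kif15, Aspm and Mki67 were among the members without a call in either tumour. The part of copy number in the members' ratios was not tested.

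Protein-changing mutations read from RNA were listed for 3 members, all in proliferative libraries. The share of the ratio table's genes with a listed mutation is not given here, so this count has nothing to be read against. The authors' list held 498 and 422 entries for proliferative and quiescent cells of SCC1 and 411 and 95 for those of SCC2, and double negative cells were not in it. Nusap1 T64A, in exon 3 at chromosome 2, position 119627574, was read in 21% of 57 reads in SCC1 (exact 95% interval 11.4 to 33.9) and in 19% of 64 reads in SCC2 (10.1 to 30.5). Kif20b I358K, in exon 10 at chromosome 19, position 34936800, was read in 16% of 69 reads in SCC2 (8.24 to 26.7). An insertion in exon 12 of Mki67, M1465fs at chromosome 7, position 135698910, was read in 21% of 14 reads in SCC2 (4.66 to 50.8). These intervals come from rounded percentages and cover counting error only, and reads are not independent molecules. The list gives no reads for a site where it has no entry, so a missing entry for quiescent cells does not show that a change is absent.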

How the data were processed

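RNA, ATAC, Smad2/3 ChIP and input samples (19 in 10 groups) were grouped by their labels. Per the submitters' processing notes, RNA went through TopHat2 2.0.9, then Cufflinks 2.2.0 with Cuffdiff 2.2.0 on mm10 (mm9 is also named for the double negative libraries); Bowtie and Picard 1.88 served for ChIP and input, and Bowtie for ATAC. The log2 ratios between populations are as deposited by the authors. Not given in the sources used here are the scaling of these ratios and the callers of peaks, copies and mutations. The rule by which genes were selected as differentially expressed for the table is not given either. Positions of sites and peaks have no score, and the Smad2/3 list holds bound sites with a motif, per the name the authors gave it. Copy numbers are whole numbers for each region; the p-value beside them, also computed by the authors, was not used. For mutations the authors deposited the read count at each site and the percent of those reads that carry the change.

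The members and gene lists were chosen with earlier results of these data known. Every member was named with its ratios, and from each list of other division genes the 2 lowest and the 1 highest by mean quiescent against proliferative ratio. Printed promoters are those with the most different motifs in 4 of the largest role groups. Among equals those with the start inside an ATAC peak were taken, a choice made after the data were seen, as was CAGAC. The smallest of these groups, the microtubule-end kinesins, has 3 members, as have the chromosomal passenger subunits, from which none was printed. The printed promoters stop 25 bases after the start. Coordinates came from RefSeq GRCm38.p6, the assembly that mm10 names: 1600 of 1609 genes matched, 1492 by symbol and 108 by synonym, and all 40 members. Windows were the gene with 10 kb either side, with an overlap of 1 bp. Intervals are exact 95% binomial. The counting, overlap and motif code was tested on simulated data. The code ran on Python 3.11.15 with scipy 1.17.1, pandas 2.3.3, numpy 2.4.6 and matplotlib 3.10.9. Alternatives were another size of ratio, 1 tumour alone, listed names alone, means, centred ratios, other windows and 1 strand.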

Additional observations from a re-analysis of the deposited data

Results flagged for a closer look

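Quiescent and double negative cells stood in opposite order in the 2 tumours for the spindle and cytokinesis genes. Of 40 members, 35 had a ratio in the authors' deposited table that was below 0 for SCC1 and above 0 for SCC2, as did 40.8% of all its genes. The median over members was -1.0 for SCC1 and 1.14 for SCC2, against -0.23 and 0.13 over all genes. With 1 library per population in each tumour, the difference between the tumours was not tested.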

How the results depend on the processing

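Every median over members kept its sign under each alternative tried. Of 69 recomputed values 51 stayed close to the value reported, that is within 1.5 times for a count and within the SD of the 2 tumours' medians for a median. That SD is wide for both comparisons of quiescent cells, where the tumours' medians lie far apart, so those medians could hardly leave it. One alternative left out members near the extreme log2 ratio of 12 in size, but no member was there, so it could change no median. At a log2 ratio of 2 the count lower in quiescent than in proliferative cells went from 38 to 13. Kifc2 was the 1 member called higher in quiescent and in double negative cells, and the counts were 0 at a log2 ratio of 2 and 0 with the listed names only. The double negative against proliferative medians were -3.15 in SCC1 and -2.89 in SCC2 as means over members, and -3.09 and -2.87 with ratios centred on the median of the authors' deposited table. Between quiescent and double negative cells, 3 members were lower and 2 higher at any size, and 0 were lower at a log2 ratio of 2. With 1 tumour left out, which of these counts was the greater depended on the tumour: the lower count ran from 1 to 20 (20 in SCC1 alone) and the higher count from 0 to 26 (26 in SCC2 alone). A Smad2/3 site lay in the body of 1 member and within 50 kb of 19. The share over all genes was not computed for these windows, so these counts have nothing to be read against. On the forward strand only, 18 members had a CHR core (12.5% of the ratio table's genes), 14 a CCAAT box (29.8%) and 2 an E2F core (11.8%). No paired analysis was possible because no value here comes from a test: the ratios are the authors' own, each taken within a tumour, and no model was fitted over the 2 tumours. The table gives neither depth nor error for a ratio, so differences between members of similar ratio are not resolved.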
